A study of Mus musculus with 9 samples.

Results

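Fos, the gene of the transcription factor c-Fos, was followed in the mouse caput epididymis, the segment of the epididymal duct nearest the testis. It was taken by its symbol from a table of 2462 genes and is 1 of them. It was chosen by its measured level in these libraries, lower after ligation while near the wild-type level in W/Wv, so its levels are given as a description, with no test. The table holds 9 mRNA libraries, 3 in each of 3 groups of mice 14 weeks old. EDL mice were of wild-type genotype and had undergone efferent duct ligation, which keeps fluid and sperm of the testis out of the epididymis. W/Wv mice carry a pair of mutant alleles of the receptor gene Kit, have testes almost without germ cells and were not treated. WT mice were of wild-type genotype and were not treated. The sample labels name no sham operation and no time between ligation and sampling, so effects of the operation cannot be told apart from those of the block. Whether each library is a different animal is not stated either. Every p-value here therefore reflects spread among libraries, part of which may be technical.

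Reads in the table numbered 3536247 to 4793225 a library, and its 5 most abundant genes took 29.3% to 33.5% of them. The caput label was read against 15 markers of principal cells, the main epithelial cell type of the duct, of which 8 could be read. Their summed level was 35240 to 37273 FPKM in EDL, 30541 to 32378 FPKM in W/Wv and 47071 to 54221 FPKM in WT. They did not all move alike. By the limma test described below, against WT 5 fell and 1 rose in EDL, and 6 fell and 1 rose in W/Wv. Over all genes tested, 35.9% and 35% were called lower, and 39.4% and 35.3% higher. The median log2 change of these markers was -3.34 in EDL and -3.33 in W/Wv. Of 15 germ cell and sperm markers 10 could be read, at a summed 14.95 to 16.2 FPKM in EDL, 14.3 to 15.9 FPKM in W/Wv and 142 to 148 FPKM in WT. Tnp2, Smcp and Akap4 were at 0 in every EDL and W/Wv library. Of 6 mast cell markers 3 were read, at a summed 0.628 to 0.823 FPKM in EDL and 0.498 to 0.660 FPKM in WT, and all 3, Cpa3, Cma1 and Mcpt4, were at 0 in W/Wv. Plin4 alone of 6 adipocyte markers had 12.4 to 14.0 FPKM in EDL, 10.8 to 13.3 FPKM in W/Wv and 5.65 to 6.91 FPKM in WT. Uchl1 alone of 6 nerve markers had 5.53 to 5.61, 6.79 to 7.24 and 42.7 to 48.1 FPKM in EDL, W/Wv and WT. A single gene, as Plin4 or Uchl1 is here, does not by itself give the amount of a cell type. The 2 of 5 red blood cell markers read summed to 8.35 to 80.4 FPKM in EDL, 19.2 to 34.0 FPKM in W/Wv and 59.8 to 99.2 FPKM in WT. Markers of basal, clear, endothelial, smooth muscle, macrophage, T and NK cells, neutrophils and fibroblasts were not analysed here. The part of cell makeup in the results below was not tested, and in these bulk samples fewer cells of a type and less RNA per cell cannot be told apart.

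c-Fos is a basic leucine zipper protein that pairs with a Jun protein to form the transcription factor AP-1. Fos is the classic immediate early gene: growth factor receptors, the ERK kinases, calcium and cyclic AMP switch it on within minutes through factors already bound to its promoter, with no new protein needed, and its mRNA is then destroyed quickly. In the initial segment, the most proximal part of the caput, ERK activity is known to depend on factors that reach the duct lumen from the testis. Those factors are carried with the fluid that efferent duct ligation stops.

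Fos lies on chromosome 12, from 85473890 to 85477274 on the forward strand (RefSeq, GRCm38.p6, the build that mm10 names), and in GENCODE its transcript has 4 exons and 1140 coding bases. The near part of its promoter is shown because these signals are read at the promoter. The same parts of Junb and Zfp36 are shown beside it, as immediate early genes described in full below. Each sequence is the 250 bases before the annotated start, 5′ to 3′ on the gene's own strand, from RefSeq with the GRCm38.p6 build. These are Fos at chr12:85473640-85473889 (+), Junb at chr8:84978749-84978998 (-) and Zfp36 at chr7:28379229-28379478 (-). Capitals mark motif matches on either strand. The TATA box was searched as TATAAA, where the transcription machinery assembles. The core of a CRE, the element bound by CREB and ATF proteins, was searched as TGACG. The site of ETS factors was searched as GGAAGT, and that of EGR factors as GCGNGGGCG. The CArG box, the site of SRF, was searched by its consensus. The full CRE, spelled TGACGTCA, contains the core. The AP-1 site was searched as TGANTCA.
Fos: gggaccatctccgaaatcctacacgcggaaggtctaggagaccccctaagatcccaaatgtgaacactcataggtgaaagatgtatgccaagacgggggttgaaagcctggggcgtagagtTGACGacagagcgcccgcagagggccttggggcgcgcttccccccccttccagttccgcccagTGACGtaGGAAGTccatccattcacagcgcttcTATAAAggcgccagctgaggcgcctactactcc
Junb: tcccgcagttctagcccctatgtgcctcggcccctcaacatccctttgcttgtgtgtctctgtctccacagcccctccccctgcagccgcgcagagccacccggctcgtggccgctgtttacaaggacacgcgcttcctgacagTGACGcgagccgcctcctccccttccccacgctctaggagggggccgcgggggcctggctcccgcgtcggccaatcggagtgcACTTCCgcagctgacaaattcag
Zfp36: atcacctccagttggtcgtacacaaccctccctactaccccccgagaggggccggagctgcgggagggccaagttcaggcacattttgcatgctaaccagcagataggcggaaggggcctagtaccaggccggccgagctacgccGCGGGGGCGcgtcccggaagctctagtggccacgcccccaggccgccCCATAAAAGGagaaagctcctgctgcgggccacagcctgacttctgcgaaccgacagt

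The Fos window held 2 CRE cores, at -129 to -125 and at -66 to -62, an ETS match at -59 to -54 and a TATA box at -33 to -28, counted from the start. Each of these is common. Of 32817 mouse promoter windows of the same length, 17.7% held the CRE core, 19.7% the ETS motif and 12.4% the TATA box. Junb held 1 CRE core, at -106 to -102, and 1 ETS match on the other strand, at -23 to -18. Zfp36 held 1 EGR match, at -105 to -97, and 1 CArG box, at -58 to -49. These motifs were found in 4.70% and 1.47% of all windows. The full CRE and the AP-1 site had no match in the 10 windows searched for Fos and its list members, and were in 1.55% and 6.75% of all windows. The CCAAT box, not capitalised, in 33.8% of all windows, was found in 4 of the 10. Promoters of 10 of the 14 genes of the immediate early and AP-1 lists were matched. Bases farther than 250 upstream were not searched, so a CArG box or other site of Fos there would not be seen.

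**Figure D1:**
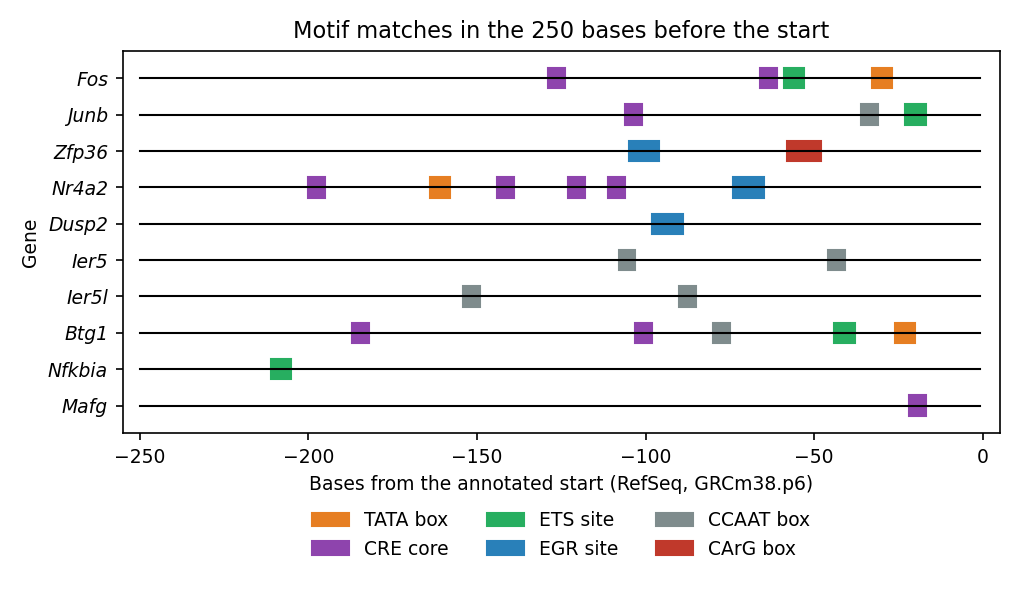
Motif matches, as coloured blocks, along the 250 bases before the annotated start of 10 genes, by distance in bases from the start (horizontal axis). Fos, at the top, has 2 CRE cores, an ETS match and a TATA box. CArG appears in Zfp36 alone among these windows, and bases farther upstream were not searched.

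Fos was low in every EDL library and several times higher in every W/Wv and WT library. It had 0.729, 0.957 and 0.891 FPKM, a read density scaled to transcript length and library depth, in EDL libraries 1 to 3. In W/Wv it had 5.41, 3.56 and 6.56 FPKM, and in WT 3.89, 9.51 and 4.96 FPKM. The 3 EDL values lay below all others, while those of W/Wv and WT overlapped. The means were 0.859 ± 0.117 FPKM in EDL, 5.18 ± 1.52 FPKM in W/Wv and 6.12 ± 2.98 FPKM in WT (SD, n = 3 each), so that EDL averaged 0.140 of the WT level and W/Wv 0.846 of it. W/Wv averaged 6.03 times the EDL level. The order of the means was WT, W/Wv, EDL, and the first 2 did not differ beyond their spread.

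**Figure D2:**
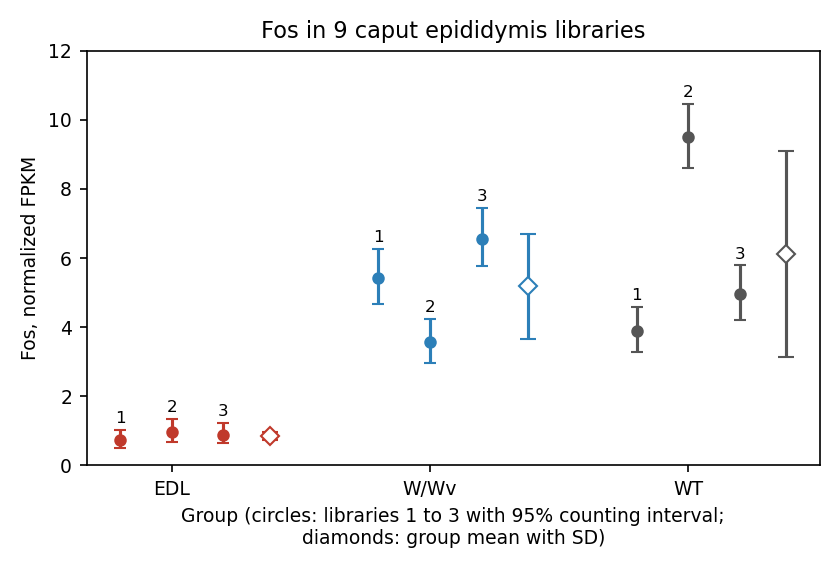
Normalized FPKM of Fos (vertical axis, from 0) in EDL, W/Wv and WT libraries, with 95% counting intervals (circles, numbered by library) and group means with SD (diamonds). The 3 EDL libraries sit under 1 FPKM, W/Wv libraries between 3.56 and 6.56 and WT libraries between 3.89 and 9.51.

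These levels rest on modest read numbers. Fos had 32, 35 and 39 reads in the EDL libraries, 185, 130 and 238 in W/Wv and 144, 417 and 161 in WT. The exact Poisson 95% intervals, which cover counting error only, reached at most 1.33 FPKM in EDL and started at 2.97 FPKM in W/Wv and 3.28 FPKM in WT. The EDL intervals overlapped one another. Within the other groups some did not: W/Wv library 3, at 5.76 to 7.45 FPKM, lay above W/Wv library 2, at 2.97 to 4.23 FPKM, and WT library 2 had an interval of 8.62 to 10.5 FPKM, above those of WT libraries 1 and 3.

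Fos was not an abundant transcript in any group. By FPKM it ranked 1909 to 1963 of the 2462 genes in EDL libraries, 1181 to 1489 in W/Wv and 982 to 1452 in WT. The differences in mean log2(FPKM + 1) were -1.86 for EDL versus WT, -0.16 for W/Wv versus WT and 1.70 for W/Wv versus EDL. All log2 values here are on this scale unless another pseudocount, measure or tool is named. A pseudocount of 1 understates the change of a gene as low as Fos: with 0.1 the first was -2.60 and the last 2.42. Without WT library 2 the difference of EDL from WT was -1.54. That of W/Wv from WT changed sign, to 0.16, without WT library 2 and to 0.05 without W/Wv library 2.

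Between libraries of a group Fos varied far more than most genes. Its within-group SD on the log2 scale was 0.398, which ranked 22 of the 2013 genes tested, against a median of 0.0924. Of 382 genes with a mean within 0.5 of that of Fos on that scale, the median SD was 0.113 and 3 genes, or 0.785%, had a larger one. The spread was in W/Wv and WT, with coefficients of variation of 29.3% and 48.7%, and was 13.7% in EDL.

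Against this, the other immediate early genes did not share one pattern. Of 61 genes listed as immediate early, 11 could be read and 10 besides Fos were tested with limma, a linear model fitted to the 2013 genes that reached an FPKM of 1 in no fewer than 3 libraries. In EDL versus WT 6 rose, 1 fell and 3 did not pass the threshold, a Benjamini-Hochberg adjusted p of 0.05 over all genes. That is 7 of 10 in a table where 75.3% of genes were called, 39.4% higher and 35.9% lower in EDL. In W/Wv versus WT 6 rose, 1 fell and 3 did not pass, where 70.3% were called, 35.3% higher and 35% lower in W/Wv. Their median change was 0.30 in EDL versus WT, against 0.05 over all genes tested, and 0.33 against 0.02 in W/Wv versus WT. These comparisons share the WT libraries, and all lists were chosen with earlier results of these data known.

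Junb, the Jun family member of AP-1 that could be read here, was abundant and moved little. It had 29.5, 27.7 and 27.6 FPKM in EDL, 37.4, 28.8 and 42.9 FPKM in W/Wv and 32.9, 34.7 and 28.9 FPKM in WT. W/Wv libraries 1 and 3 were above all others, while W/Wv library 2 lay among the EDL values and WT overlapped both groups. Its log2 change was -0.18 in EDL versus WT (SE 0.12, limma adjusted p = 0.21), and 0.16 in W/Wv versus WT (SE 0.12, limma adjusted p = 0.28). Between W/Wv and EDL it was 0.34 (limma adjusted p = 0.10; 0.0056 to 0.25 over the alternatives). Without W/Wv library 2 Junb passed in all 3 comparisons, at -0.18, 0.31 and 0.49 (limma adjusted p = 0.049, 0.0066 and 0.0056).

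Zfp36, a protein that binds AU-rich elements and speeds the decay of mRNAs, Fos among its known targets, was the list member that fell in EDL. It had 18.1, 17.5 and 18.8 FPKM in EDL, 21.4, 18.6 and 28.8 FPKM in W/Wv and 25.03, 26.4 and 22.4 FPKM in WT. All EDL values lay below all WT values, and W/Wv overlapped both. The log2 change in EDL versus WT was -0.42 (SE 0.13, limma adjusted p = 0.015; 0.00035 to 0.053 over the alternatives), and the call was lost without WT library 2, at -0.37 (limma adjusted p = 0.053). For W/Wv versus WT it was -0.12 (limma adjusted p = 0.44) and in W/Wv versus EDL 0.30 (limma adjusted p = 0.17). These passed when 1 library was left out, at -0.29 without W/Wv library 3 (limma adjusted p = 0.0093) and at 0.43 without W/Wv library 2 (limma adjusted p = 0.036).

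Other immediate early genes were higher in both EDL and W/Wv than in WT. Nfkbia, the inhibitor that holds NF-kappaB in the cytoplasm, had 38.9, 36.5 and 38.1 FPKM in EDL, 39.3, 34.6 and 36.9 FPKM in W/Wv and 19.6, 20.3 and 21.8 FPKM in WT, with no overlap of WT with the other groups. It rose by 0.85 in EDL versus WT (SE 0.06, limma adjusted p = 1.1e-07) and by 0.82 in W/Wv versus WT (limma adjusted p = 1.7e-07). Nfkbiz, a nuclear relative that works with NF-kappaB on secondary targets, rose by 1.01 in EDL (limma adjusted p = 5.2e-06) and by 0.67 in W/Wv (limma adjusted p = 0.00016). Its mean was 5.45 ± 0.147 FPKM in EDL, 4.11 ± 0.291 FPKM in W/Wv and 2.24 ± 0.513 FPKM in WT (SD, n = 3 each). Its difference of W/Wv from EDL, -0.34, did not pass (limma adjusted p = 0.06) but did without WT library 1 (0.043) or WT library 3 (0.006).

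Dusp2, a nuclear phosphatase that switches ERK off, had 1.32 ± 0.0858 FPKM in EDL, 1.34 ± 0.159 FPKM in W/Wv and 0.642 ± 0.129 FPKM in WT. Nr4a2, an orphan nuclear receptor induced by cyclic AMP, had 1.002 ± 0.0261, 0.979 ± 0.108 and 0.557 ± 0.138 FPKM in EDL, W/Wv and WT (SD, n = 3 each for both genes). Both rose in both comparisons with WT, Dusp2 by 0.50 and 0.51 and Nr4a2 by 0.37 and 0.35 (limma adjusted p = 0.0037 or below). The antiproliferative gene Btg1 rose by 0.23 in EDL and 0.31 in W/Wv, and Hes1, a repressor downstream of Notch, by 0.39 and 0.38. Ier5 did not pass in either comparison, at log2 changes of 0.16 and 0.14, but did in EDL versus WT without WT library 3, at 0.26 (limma adjusted p = 0.042). Its relative Ier5l fell in W/Wv versus WT, by 0.48 (limma adjusted p = 0.0072), and was at -0.24 in EDL versus WT (limma adjusted p = 0.13), or at -0.34 without WT library 1 (limma adjusted p = 0.037).

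Fos had the widest gap between W/Wv and EDL in its list. It was chosen by these levels, so the choice itself favoured this gap and the rank given below. None of the other 10 passed limma in W/Wv versus EDL, where 14% of all genes were called, 6.95% higher and 7% lower in W/Wv. At an unadjusted p of 0.05 limma had 3, edgeR called 1 and DESeq2 called 3, namely Junb, Zfp36 and Nfkbiz. Among the 2013 genes, Fos had the third largest rise in W/Wv versus EDL, rank 3, by log2 change.

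**Figure D3:**
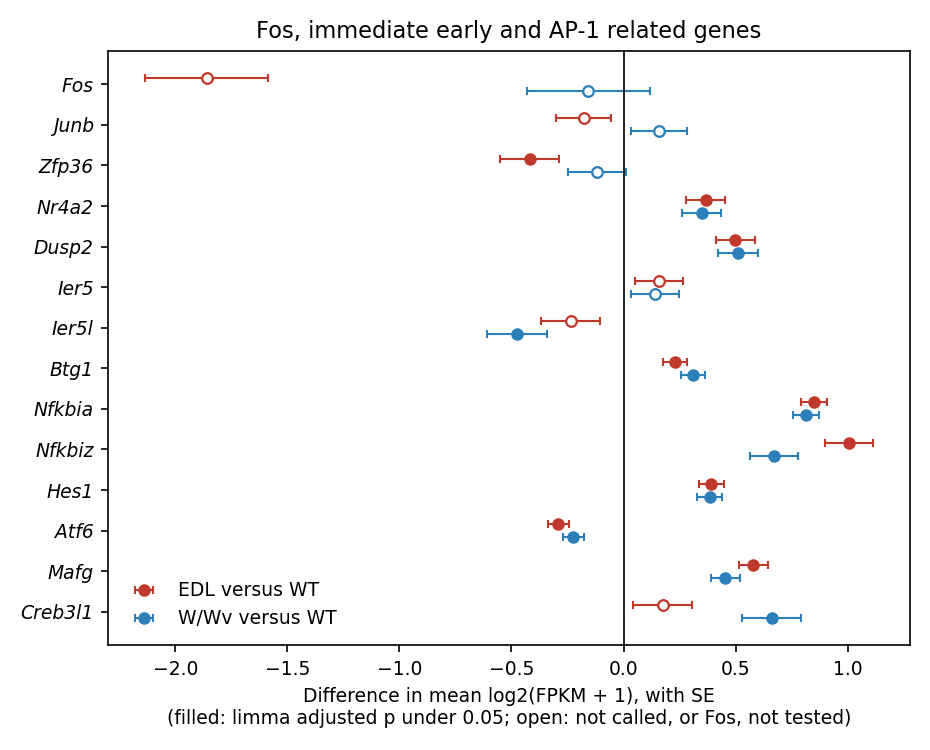
Differences in mean log2(FPKM + 1) with SE (horizontal axis) for Fos and 13 immediate early or AP-1 related genes, EDL versus WT in red and W/Wv versus WT in blue. Filled points passed limma at an adjusted p of 0.05; open points did not pass, and Fos, at -1.86 and -0.16, was not tested.

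The wider AP-1 family was thinly covered. Of 42 genes listed as partners and relatives of AP-1, 5 could be read, Fos and Junb among them, and 4 besides Fos were tested. Over all genes tested, 75.3% were called in EDL versus WT, 70.3% in W/Wv versus WT and 14% in W/Wv versus EDL. In EDL versus WT 1 rose, 1 fell and 2 did not pass (median -0.00, over all genes 0.05). In W/Wv versus WT 2 rose, 1 fell and 1 did not pass (median 0.31, over all genes 0.02), and in W/Wv versus EDL 1 was higher and 3 did not pass (median 0.20, over all genes 0.00). Mafg, a small Maf protein that pairs with NRF factors, had 20.6, 22.4 and 20.7 FPKM in EDL, 20.04, 17.7 and 20.4 FPKM in W/Wv and 14.7, 13.5 and 13.4 FPKM in WT. It rose by 0.58 in EDL (limma adjusted p = 7.4e-06) and by 0.45 in W/Wv (limma adjusted p = 6.0e-05). Atf6, a sensor of endoplasmic reticulum stress, fell by 0.29 in EDL (limma adjusted p = 0.00015) and by 0.22 in W/Wv (limma adjusted p = 0.0011). Creb3l1, a membrane-bound CREB relative, had 5.43, 7.56 and 6.63 FPKM in W/Wv and 3.83, 4.73 and 4.53 FPKM in EDL, with W/Wv above EDL in every library. That difference was 0.49 (SE 0.13, limma adjusted p = 0.033; 0.0038 to 0.13 over the alternatives), and the call was lost without EDL library 1, 2 or 3 and without W/Wv library 2 or 3, at 0.39 to 0.53.

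Genes listed as possible regulators of the Fos promoter were few in the table, 4 of 35. Whether they act on Fos in this tissue was not tested. The shares called over all genes were 75.3% in EDL and 70.3% in W/Wv versus WT, and 14% in W/Wv versus EDL. In EDL versus WT 3 rose and 1 did not pass (median 0.18), in W/Wv versus WT 2 rose and 2 did not pass (median 0.18), and in W/Wv versus EDL none of the 4 passed limma (median 0.01; 1 at an unadjusted p of 0.05, 1 by edgeR and 0 by DESeq2). Elk1, the ETS partner of SRF that ERK phosphorylates, had 7.33 FPKM on average in EDL, 6.71 FPKM in W/Wv and 6.17 FPKM in WT. Its log2 change in EDL versus WT was 0.22 (SE 0.09, limma adjusted p = 0.036), a call lost under 7 of 19 alternatives, as was that of Ets2, at 0.13 (limma adjusted p = 0.024). Among these were leaving out EDL library 1 or 2 for both genes, WT library 3 for Elk1, at 0.13, and WT library 2 for Ets2, at 0.11. Spdef, an ETS factor of secretory epithelia, rose by 1.08 in EDL (limma adjusted p = 3.8e-06) and 0.90 in W/Wv (limma adjusted p = 2.0e-05), at 1.88, 1.56 and 0.364 FPKM on average in EDL, W/Wv and WT. Yy1, a zinc finger factor named after its values were seen, did not pass limma in any comparison. Its log2 change in EDL versus WT was -0.11 (limma adjusted p = 0.13), and edgeR on recovered reads called it lower (adjusted p = 0.044).

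Upstream, at the receptors and ligands of ERK, 6 of 52 listed genes could be read and 4 were tested. In EDL versus WT 1 rose, 1 fell and 2 did not pass (median -0.15), and in W/Wv versus WT 2 rose, 1 fell and 1 did not pass (median 0.33). Between W/Wv and EDL 1 passed, with W/Wv above EDL, and 3 did not (median 0.36). Of all genes, 75.3%, 70.3% and 14% were called in these comparisons, in that order. Of the receptors, Ntsr1 fell and S1pr3 rose in both models. Ntsr1, for neurotensin, had 0 reads in EDL and in W/Wv and 6250 in WT, at least 2048-fold lower in each, with 3 reads per group taken as the floor. S1pr3, for sphingosine 1-phosphate, rose by 2.37 in EDL (limma adjusted p = 0.00011) and 2.90 in W/Wv (limma adjusted p = 3.8e-05). All W/Wv values of S1pr3 lay above all EDL values, by 0.52 on average (limma adjusted p = 0.27). That difference passed in a fit of those 2 groups only (limma adjusted p = 0.00012) and without WT library 3 (limma adjusted p = 0.00016).

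The ligand Fgf2, a fibroblast growth factor that signals through ERK, was the tested member that passed between the models with all 9 libraries fitted. It is named after its values were seen. It had 3.48, 3.36 and 3.60 FPKM in W/Wv and 1.14, 1.89 and 2.02 FPKM in EDL, with no overlap. The WT libraries lay between, at 1.87, 2.27 and 2.48 FPKM, overlapping EDL. The difference of W/Wv from EDL was 0.76 (SE 0.13, limma adjusted p = 0.0025), resting on 97 reads in W/Wv and 54 in EDL. That of EDL from WT was -0.27 (limma adjusted p = 0.07), and passed without WT library 1, at -0.35, without EDL library 3, at -0.36, with a replicate block (0.039) and with median-ratio scaling between libraries. W/Wv was 0.49 above WT (limma adjusted p = 0.0045), a call lost with DESeq2 (adjusted p = 0.082). Nell2, a ligand that the testis is known to send to the epididymis and also named after its values were seen, was near the detection limit of this tissue, at 0.145 to 0.262 FPKM in EDL, 0.387 to 0.560 FPKM in W/Wv and 0.0436 to 0.137 FPKM in WT, and was not tested.

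Within the kinase cascade, 12 of 59 listed genes were read and tested. Among all genes tested, 75.3% were called in EDL versus WT, 70.3% in W/Wv versus WT and 14% in W/Wv versus EDL. In EDL versus WT 6 rose, 4 fell and 2 did not pass (median 0.07), and in W/Wv versus WT 5 rose, 4 fell and 3 did not pass (median 0.11). In W/Wv versus EDL none of the 12 passed limma (median 0.04; 2 at an unadjusted p of 0.05, 1 by edgeR and 1, Shc4, by DESeq2). Shc4, an adaptor that couples receptor tyrosine kinases to Ras, had 0.187, 0.258 and 0.159 FPKM in EDL, 0.492, 0.438 and 0.384 FPKM in W/Wv and 50.5, 44.9 and 41.8 FPKM in WT. Unlike Fos, it was far below WT in both models, at log2 changes of -5.28 and -5.02 (limma adjusted p = 8.4e-13 and 9.7e-13). W/Wv lay above EDL for Shc4 by 0.26 with no overlap (limma adjusted p = 0.059), and this passed under 9 of 19 alternatives. Rps6ka2, a ribosomal S6 kinase that ERK activates, fell by 1.74 in EDL (limma adjusted p = 9.6e-09) and by 1.71 in W/Wv (limma adjusted p = 1.2e-08), and Mapk10, a JNK kinase, fell by 0.57 and 0.48. Mapk7, the kinase ERK5, rose by 0.64 and 0.65, and Map3k1, at the head of the JNK branch, by 0.61 and 0.73.

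Of 31 genes listed as feedback inhibitors or ETS outputs of ERK, 4 could be read, all phosphatases and all tested. Beside them, 75.3% of all genes were called in EDL versus WT, 70.3% in W/Wv versus WT and 14% in W/Wv versus EDL. In each comparison with WT 1 rose and 3 fell (median -0.78 in EDL and -0.85 in W/Wv), and in W/Wv versus EDL none of the 4 passed limma (median -0.06; 1 at an unadjusted p of 0.05, 0 by edgeR and 0 by DESeq2). Dusp8, a phosphatase of JNK and p38, had 1.14, 0.784 and 1.38 FPKM in EDL, 1.10, 0.830 and 0.882 FPKM in W/Wv and 5.95, 5.35 and 4.77 FPKM in WT. It fell by 1.60 in EDL (limma adjusted p = 1.8e-07) and by 1.71 in W/Wv (limma adjusted p = 1.1e-07). Dusp16 fell by 0.84 in both, and Dusp14 by 0.72 and 0.86. The member that rose was Dusp2, described above.

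Downstream, 6 of 38 genes known as AP-1 targets in other cells could be read and 4 were tested. In EDL versus WT 1 rose, 2 fell and 1 did not pass (median -0.33), and in W/Wv versus WT the counts were 1, 2 and 1 (median -0.58). Against EDL, 1 passed with a higher level in W/Wv, and 3 missed the threshold (median -0.13). Shares called over all genes were 75.3%, 70.3% and 14% in the same order. Mmp7, a matrix metalloproteinase of secretory epithelia, was lowest in EDL, at 38.4, 31.4 and 31.8 FPKM, against 42.1, 62.1 and 52.0 FPKM in W/Wv and 142, 170 and 150 FPKM in WT. No 2 groups overlapped. It fell by 2.15 in EDL and by 1.56 in W/Wv (limma adjusted p = 2.5e-07 and 2.9e-06), and W/Wv was 0.59 above EDL (SE 0.13, limma adjusted p = 0.017), a call lost without EDL library 2 or 3 or W/Wv library 3, at 0.54 to 0.59. Cdkn1a, the cell cycle inhibitor p21, rose by 1.67 and 1.36 (limma adjusted p = 1.6e-06 and 8.0e-06), and the quinone reductase Nqo1 fell by 0.56 and 0.50 (limma adjusted p = 1.8e-05 and 4.9e-05).

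Timp1, an inhibitor of matrix metalloproteinases and a textbook AP-1 target, did not pass in any comparison in the fit of all 9 libraries. It is named after its values were seen. It had 16.1, 11.7 and 12.9 FPKM in EDL, 7.56, 9.25 and 9.42 FPKM in W/Wv and 7.54, 39.0 and 9.84 FPKM in WT. WT library 2, the one with the most Fos, was far above all others for Timp1. Without it the log2 change of Timp1 in EDL versus WT was 0.59 (limma adjusted p = 0.0056), against -0.10 with it (limma adjusted p = 0.88), and W/Wv versus EDL, at -0.57, also passed (limma adjusted p = 0.021). The W/Wv versus EDL difference passed as well in a fit of those 2 groups only (limma adjusted p = 0.0099).

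Heat shock and hypoxia genes, which respond to the handling of tissue as Fos does, were read beside it. Of 20 listed, 5 were read and tested: 4 rose and 1, Hsp90aa1, fell in both EDL (median 1.01) and W/Wv versus WT (median 0.84). Against EDL, 1 was higher in W/Wv, 1 lower and 3 did not pass (median -0.17). For comparison, 75.3% of all genes were called in EDL versus WT, 70.3% in W/Wv versus WT and 14% in W/Wv versus EDL. Hspa1b, an inducible heat shock chaperone, had 34.7, 34.8 and 32.2 FPKM in EDL, 24.5, 23.8 and 25.2 FPKM in W/Wv and 10.6, 11.2 and 12.8 FPKM in WT, and no 2 groups overlapped. It rose by 1.48 in EDL (limma adjusted p = 4.0e-09) and by 1.03 in W/Wv (limma adjusted p = 7.9e-08), and was 0.45 lower in W/Wv than in EDL (limma adjusted p = 0.0012). Its near-identical copy Hspa1a rose by 1.37 and 1.15, and reads could be split between the pair. Hspb1, a small heat shock protein, rose by 1.01 and 0.84, and the glucose transporter Slc2a1 by 0.48 and 0.76. The part of tissue handling in the level of Fos was not tested.

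Because Fos varied within groups, the deviation of each library from its group mean was set beside that of the list members, a measure that the choice of Fos did not use and that was added after the values were seen. Fos deviated by -0.10, 0.08 and 0.03 in EDL libraries 1 to 3, by 0.08, -0.41 and 0.32 in W/Wv and by -0.46, 0.64 and -0.18 in WT. Junb was also highest of its group in W/Wv library 3, at 0.25, lowest in W/Wv library 2, at -0.31, and highest in WT library 2, at 0.11. Zfp36 followed the same order in W/Wv for its highest and lowest library, at 0.34 and -0.27, with 0.10 in WT library 2. Other libraries did not follow Fos. In WT library 1, where Fos was lowest of its group, Junb was at 0.04 and Zfp36 at 0.03. Both were lowest of that group in WT library 3, at -0.14 and -0.13. In EDL library 1, where Fos was lowest, Junb was highest of its group, at 0.06. Over the 9 libraries, which share group means and depth, Pearson's r of the deviations with Fos was 0.80 for Dusp2, 0.65 for Junb and 0.62 for Zfp36. It ranged from 0.72 to 0.84 for Dusp2, from 0.52 to 0.80 for Junb and from 0.49 to 0.75 for Zfp36 when 1 library was left out. These are descriptions: by r they ranked 48, 164 and 191 of 2012 genes, and 47 genes had an r above 0.8. Tapbp, a chaperone of antigen presentation, and Nfkb2, a subunit of NF-kappaB, had the highest of all, at 0.98 and 0.96, and are named after their values were seen. The other list members ranged from -0.56 for Creb3l1 to 0.45 for Ier5l. Dusp2 had few reads, 14, 25 and 16 in WT libraries 1 to 3 and 32 to 44 in EDL and W/Wv libraries. The part of counting error in its deviations was not tested.

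**Figure D4:**
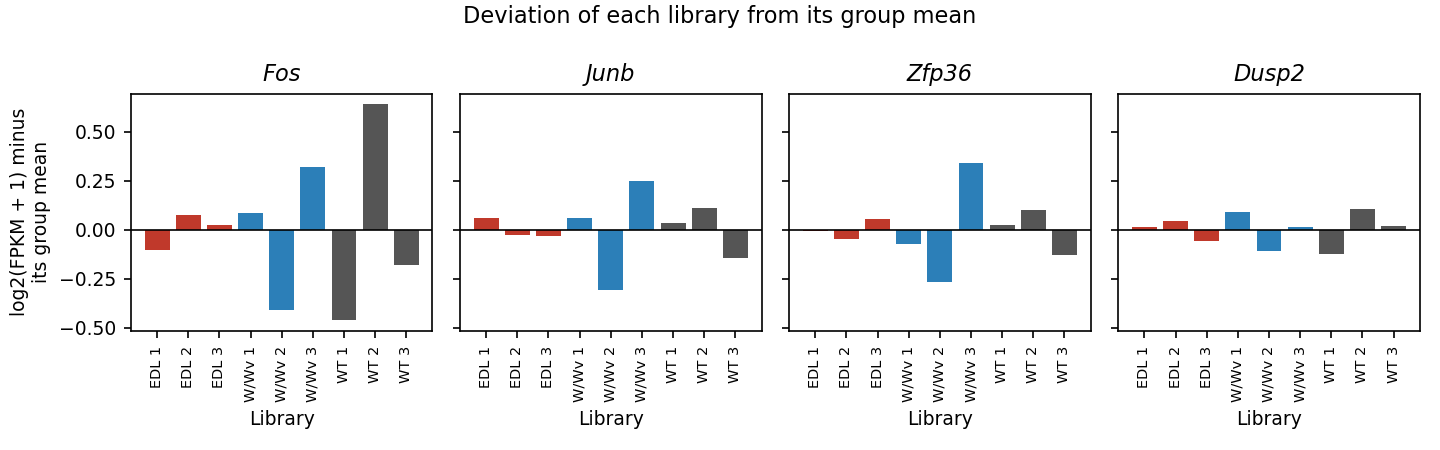
Deviation of log2(FPKM + 1) from the group mean (vertical axis) in each EDL, W/Wv and WT library for Fos, Junb, Zfp36 and Dusp2. W/Wv library 3 and WT library 2 are the highest Fos libraries of their groups, at 0.32 and 0.64, and W/Wv library 2 lies below its group mean for all 4 genes.

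The genes whose levels over all 9 libraries were most like those of Fos were then named by Pearson's r of log2(FPKM + 1), which the group pattern of Fos dominates. Pld3, a lysosomal nuclease of the phospholipase D family, came first, with r of 0.95. It had 92.4, 89.7 and 91.0 FPKM in EDL, 121, 113 and 130 FPKM in W/Wv and 134, 145 and 134 FPKM in WT, so that the groups did not overlap and W/Wv lay between the others. Erdr1 (r of 0.93) had 0.300, 0.0900 and 0.0752 FPKM in EDL, 206, 60.7 and 224 FPKM in W/Wv and 5.34, 153 and 97.2 FPKM in WT. Like Fos it was low in EDL alone and varied widely in the other groups, and as a gene with near-identical copies its counting is uncertain. Lix1l (r of 0.92), the matrix protein gene Fbln7 and the collagen hydroxylase gene Plod1 (r of 0.91 each), the receptor gene Igf2r and the caspase gene Casp9 (r of 0.90 each) and the ubiquitin ligase gene Trim37 (r of 0.89) followed. Fbln7 had 1.59 ± 0.220 FPKM in EDL, 3.07 ± 0.177 FPKM in W/Wv and 3.98 ± 0.315 FPKM in WT (SD, n = 3 each). Apart from Erdr1 their changes were small beside that of Fos, from -0.95 for Fbln7 to -0.16 for Trim37 in EDL versus WT.

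Opposite to Fos were Mphosph10, a component of ribosomal RNA processing (r of -0.95), the translation elongation factor gene Eef1a1 (r of -0.94) and BC021767 (r of -0.93). Eef1a1, an abundant mRNA of most cells whose many processed copies make its counting uncertain, had 5654, 5360 and 5572 FPKM in EDL, 5063, 5084 and 4700 FPKM in W/Wv and 5104, 4556 and 5105 FPKM in WT. Its lowest libraries were W/Wv 3 and WT 2, where Fos was highest in its group. Its log2 change in EDL versus WT was 0.17 (limma adjusted p = 0.065), and 0.20 without WT library 1 or 3 (limma adjusted p = 0.044 and 0.042).

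**Figure D5:**
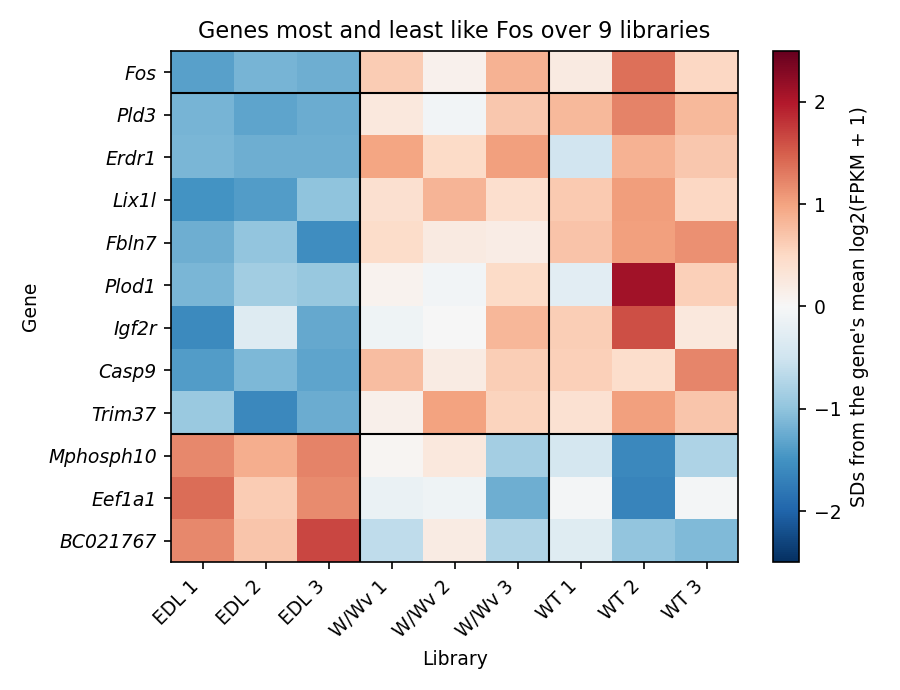
Levels of Fos, of the 8 genes most like it and of the 3 least like it (rows) in EDL, W/Wv and WT libraries (columns), coloured by SDs from each gene's mean log2(FPKM + 1). The 8 are below their means in the EDL libraries, with r of 0.89 to 0.95 with Fos, and the 3 are above theirs there.

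Genes with the pattern that chose Fos were counted as a description. In 213 of 2013 genes, or 10.6%, all 3 EDL values lay below all 6 W/Wv and WT values. By the difference of EDL from the mean of the W/Wv and WT means, Fos ranked 6, at -1.78, after Erdr1 (-6.13), Crisp1 (-5.34), Cldn10 (-2.90), Shc4 (-2.77) and Dusp15 (-2.60). The last 4 were also far below WT in W/Wv. Crisp1, a secreted protein that binds sperm, had 1.78 FPKM in EDL, 7.68 FPKM in W/Wv and 1498 FPKM in WT on average. Cldn10, a tight junction protein, had 6.17, 12.4 and 216 FPKM and the phosphatase Dusp15 0.185, 1.02 and 24.8 FPKM in EDL, W/Wv and WT. Fos itself was not tested. Of the other 2012 genes, 20, or 0.994%, were called lower by limma in EDL than in WT and in W/Wv, with W/Wv and WT not called different. By log2 change in EDL versus WT, Erdr1 led them at -5.31, and 8430430B14Rik, Fastkd3 and Msl3 came next, at -0.72, -0.50 and -0.50, named after their values were seen. The W/Wv versus EDL call was lost under 6 of 19 alternatives for Erdr1 and 3 of 18 for 8430430B14Rik. Fastkd3 and Msl3 kept it under all 19. Erdr1 was 1.64 higher in W/Wv than in WT, not called at an SE of 1.25. Reads of 8430430B14Rik were few, 17 in EDL and 34 each in W/Wv and WT.

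On chromosome 12, 18 protein-coding genes, Fos included, lie within 500 kb of it. Batf and Jdp2, which also encode partners of Jun proteins, are among them and were not analysed here. The neighbour that could be read was Ttll5, a tubulin glutamylase, at 347 kb. It had 3.20, 3.25 and 3.07 FPKM in EDL, 3.17, 3.63 and 3.97 FPKM in W/Wv and 4.70, 5.08 and 4.29 FPKM in WT. W/Wv overlapped EDL, and both lay below WT. It fell by 0.45 in EDL (limma adjusted p = 0.00044) and by 0.31 in W/Wv (limma adjusted p = 0.0054).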

How the data were processed

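RNA of the caput epididymis was made into stranded mRNA libraries with a TruSeq kit, per the labels' protocols, and titles gave group and replicate number. The submitters' processing notes name mm10 as the build, with Cufflinks 2.2.1 and TopHat2 2.1.1 as tools. The choice of the 2462 genes and the use of strand in counting were not stated. Per the file headers, the authors deposited normalized FPKM values for each gene. They also deposited normalized counts, a signal; dividing by the step of each library gave whole reads for 98.7% to 98.9% of values within 0.1 of a read.

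Genes were tested with limma 3.58.1 (R 4.3.3; trended, robust empirical Bayes) on log2(FPKM + 1), for the 2013 genes reaching an FPKM of 1 in 3 libraries, with all 9 libraries in a single fit, with Benjamini-Hochberg adjustment over all genes tested and a threshold of 0.05. edgeR 4.0.16 and DESeq2 1.42.0 on recovered reads, which called 1523 and 1485 genes in EDL versus WT against 1516 by limma, were alternatives beside others in pseudocount, filter, scaling, fit and libraries. The scripts were tested on simulated data. Counting intervals are exact Poisson (SciPy 1.17.1) at 95%; plots used matplotlib 3.10.9. Every pair within a group differed by more than counting error (3.14 to 24.9 for chi-square per gene), and each library counted as 1 replicate.

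Named genes were Fos, the tested members of the immediate early and AP-1 lists, up to 5 members of each other list with the largest change past the threshold in EDL versus WT, the 8 most and 3 least like Fos, 6 by the pattern of its choice and its neighbours within 500 kb; genes named outside it are given as chosen after their values were seen. Fos, the lists and the rule were chosen with earlier results of these data known.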

Additional observations from a re-analysis of the deposited data

How the results depend on the processing

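Fos kept its direction in EDL versus WT and in W/Wv versus EDL under every alternative run. With a pseudocount of 0.1 its log2 difference was -2.60 and 2.42, with deposited normalized counts -2.70 and 2.52, with edgeR -2.90 and 2.62, and with DESeq2 -2.88 and 2.62, larger because a pseudocount weighs less there. Leaving out 1 library gave -2.09 to -1.54 for EDL versus WT, 1.54 to 1.91 for W/Wv versus EDL and -0.39 to 0.16 for W/Wv versus WT. Genes called in W/Wv versus EDL, 281 in all, were 425 in a fit of those 2 groups only and 174 to 385 with 1 library left out. Immediate early genes called in W/Wv versus EDL, 0 by limma, were 1 in a fit of those groups only, 1 with edgeR, 3 with DESeq2 and 0 to 2 with 1 library left out; in W/Wv versus WT, 7 in all, they were 4 of 7 tested at an FPKM of 5 or more. For Timp1 in EDL versus WT, -0.10 with all libraries, leaving out 1 library gave -0.53 to 0.59, the sign turning without WT library 2.

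Groups share replicate numbers, but same-numbered libraries did not deviate together (r of -0.34 to 0.08), so the numbers were not taken as pairs. With a replicate block limma called 1485 genes in EDL versus WT, 1380 in W/Wv versus WT and 219 in W/Wv versus EDL, and 7, 7 and 0 immediate early genes. Of 183 changes of named genes, 144 kept their direction and side of the threshold under all alternatives; over the rest 57 values lost and 54 gained the call. Depth limits Fos most in EDL, where 32 to 39 reads a library give intervals of 0.499 to 1.33 FPKM.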
